A study of Mus musculus with 14 samples.

Results

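Control dopaminergic neurons of the mouse ventral midbrain were compared between 10 and 3 weeks of age. The comparison rests on 6 of the 14 expression arrays of the study, control 3 weeks 1 to 3 and control 10 weeks 2 to 4. These libraries were chosen by their title, except that the library labelled control 10 weeks 1 was set aside because its Tfrc pattern goes against its label, and it enters only as a repeat with 7 libraries. So the set of libraries was selected on Tfrc, and no test is given for that gene. All animals were F2 mice of 129Sv and C57BL/6 origin. The controls were heterozygous for the Tfr1 allele, so both ages share that allele and neither is wild type. Tfrc encodes Tfr1, a receptor through which cells import iron bound to transferrin, and the Tfr1-null mice of the same study lack it in dopaminergic neurons. Controls and mutants alike carried the RiboTag allele, an epitope-tagged ribosomal protein that lets the ribosomes of a chosen cell type, with their bound mRNA, be pulled from a lysate of the whole ventral midbrain. The labels do not name the Cre driver. They also do not say whether replicates were separate animals, so p-values measure only the spread between these libraries, which may be technical.

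Midbrain dopaminergic neurons make dopamine with tyrosine hydroxylase and aromatic amino acid decarboxylase, load it into vesicles and take it up again through the dopamine transporter. In the mouse their axons reach the striatum before birth. In the weeks after weaning, axons stop growing, synapses and ion channels mature, and glia finish myelinating the tracts around them. Ribosome pulldown enriches for the mRNA of the tagged cells but carries over some RNA of the others, so markers of other cells are given beside the results. Fewer cells of a type and less RNA per cell cannot be told apart in such bulk samples.

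The ages were scaled apart before deposit. The median change of all genes was 0.89 log2 units in the deposited values and 0.01 after quantile normalization of the 6 arrays together, so every change below is relative to the other genes on the arrays. Libraries correlated at 0.993 to 0.996 across probe sets within 3 weeks and at 0.977 to 0.981 within 10 weeks, and the median SD of a gene was 0.10 log2 units at 3 weeks and 0.19 at 10 weeks. Tfrc is covered by a 5′, a middle and a 3′ probe set, which read 8.16, 11.11 and 10.99 in control 10 weeks 1. In the other controls of that age the 5′ probe set lay between 9.29 and 10.09, the middle one between 8.82 and 9.51 and the 3′ one between 8.19 and 9.49. In the 3-week controls these probe sets lay between 9.95 and 10.04, between 9.25 and 9.31 and between 9.65 and 9.73. A male pattern of Y-linked and X-inactivation genes appeared in 1 of 3 controls at 3 weeks and in 3 of 3 at 10 weeks, so sex, array scaling and age cannot be told apart here. X-linked genes outside X inactivation were called in 8.16% of 613 cases and other genes in 8.52% of 17566. The hybridization controls differed little between ages, with means of 12.60 to 12.80 and then 12.68 to 12.75. The Actb 3′ probe set minus its 5′ probe set ran from -0.10 to -0.02 at 3 weeks and from -0.47 to -0.23 at 10 weeks, and the part of this shift in the results was not tested.

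Limma called 1546 of 18179 genes (8.50%) at an adjusted p under 0.05, the threshold used throughout. Of these, 655 (3.60% of all genes) rose from 3 to 10 weeks and 891 (4.90%) fell. Changes of at least 1 log2 unit were rarer, with 91 rises (0.501%) and 113 falls (0.622%). All 1546 called genes had groups that did not overlap, which was also true of 37.6% of all genes. The unadjusted p was under 0.05 for 5165 genes. The count depends on each of the 3-week libraries: without control 3 weeks 1, 2 or 3 limma called 0 genes, with 3694, 3672 and 3887 genes at an unadjusted p under 0.05 and a smallest adjusted p of 0.0632. When the spread was instead taken from the Tfr1-null arrays as well, leaving out the same libraries gave 1133, 1142 and 1258 genes. Against the male-pattern control of 3 weeks alone, with the spread from 10 arrays, limma called 1 gene, with 2710 at an unadjusted p under 0.05. That gene, Tdrd1, a tudor protein of the germline, was not called with all 3 (adjusted p = 0.098) and is named only because the count is so low. For 422 called genes the dimmer age was not above background, meaning that all probe sets of the gene lay under the 25th percentile of the array (4.94 log2 units) in all its libraries. Their change is given as a lower bound. Of 555 called genes with more than 1 probe set above background, 305 (55.0%) had every such probe set on the same side of 0, against 42.7% of genes not called. Probe sets above background that stood on the other side of 0 are given below beside each called gene. Smaller changes on the same side are given for some genes only.

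**Figure D1:**
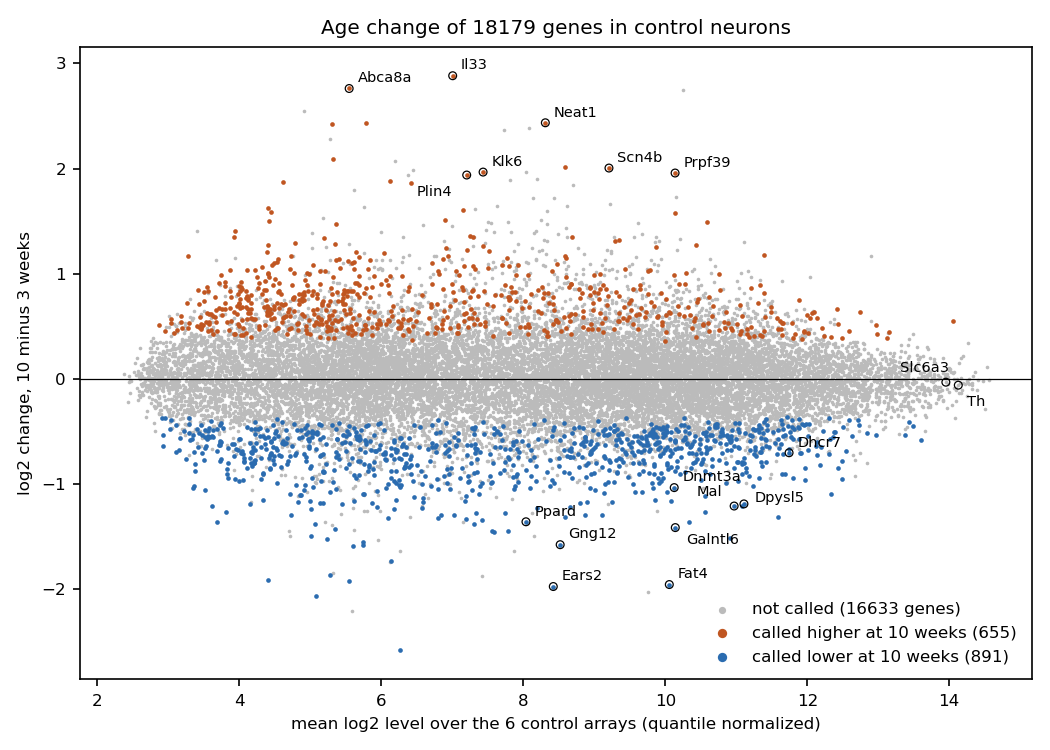
Each point is 1 of 18179 genes, with its mean log2 level over the 6 control arrays on the horizontal axis and its log2 change from 3 to 10 weeks on the vertical axis, levels under background included. The 655 called rises and 891 called falls spread over the whole range of levels, while Th and Slc6a3 sit near 0 change at the bright end.

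Among the named genes the largest rises at 10 weeks were those of Il33, Abca8a, Serpinb1a and Neat1. Whether they arose in dopaminergic neurons or in carried-over RNA of other cells was not tested. Il33, an alarmin cytokine stored in cell nuclei, read 5.86, 5.33 and 5.50 in the 3-week libraries and 8.39, 8.96 and 7.99 in the 10-week libraries. It rose by 2.88 log2 units (7.38-fold, SE 0.27, adjusted p = 0.0143). Abca8a, a lipid transporter of the ABC family, lay at 4.06 to 4.22 at 3 weeks, under background, and at 6.71 to 7.30 at 10 weeks, so it rose by at least 1.99 (adjusted p = 0.0104). Serpinb1a, an inhibitor of neutrophil proteases, rose by 2.44 (SE 0.43), unevenly, with 10-week values of 6.24, 7.97 and 6.80. Neat1, the long noncoding RNA that builds nuclear paraspeckles, read 6.81, 7.02 and 7.44 and then 9.86, 9.22 and 9.50, and its rise of 2.44 (SE 0.22, adjusted p = 0.0143) compares with 0.92 at its other probe set. Neat1 is known as an RNA that stays in the nucleus. Against the male-pattern control of 3 weeks alone, Il33 stood 3.11 higher, Serpinb1a 2.18 and Neat1 2.52.

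Scn4b, the sodium channel beta 4 subunit that speeds resurgent current in fast-firing neurons, read 8.31, 8.56 and 7.75 at 3 weeks and 9.60, 10.95 and 10.08 at 10 weeks, a rise of 2.01 (4.01-fold, SE 0.37, adjusted p = 0.0326). Klk6, a secreted serine protease that oligodendrocytes make, rose by 1.97 (SE 0.39). Plin4, which coats lipid droplets, read 6.46, 6.23 and 6.01 and then 8.12, 8.22 and 8.17, a rise of 1.94 (SE 0.13, adjusted p = 0.0104). Prpf39, a splicing factor, rose by 1.96 at its brightest probe set, but the 3 probe sets ranged from 0.19 to 1.96. Coq3, a methyltransferase of ubiquinone synthesis, rose by 1.58, with 0.08 at its other probe set. Nudt16, a hydrolase that removes caps from small nucleolar RNA, rose by 1.49, from 9.77, 9.86 and 9.91 to 11.13, 11.34 and 11.54. Prrg1, a vitamin K-dependent membrane protein, rose by 1.51. Sult2b1, a sulfotransferase of steroids and cholesterol, and Dnmt3b, a de novo DNA methyltransferase, were under background at 3 weeks and rose by at least 0.61 and 0.28. The rises of Cox7c, a subunit of cytochrome oxidase (at least 1.58), and Rpl12, a ribosomal protein (1.88), come from dim probe sets, with means of 4.10 and 5.18 at 3 weeks.

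Of the named genes that fell, Fat4, Ears2 and Gng12 were among the brighter ones. Fat4, a giant protocadherin of the planar polarity pathway, read 10.65, 11.32 and 11.13 at 3 weeks and 8.99, 8.97 and 9.28 at 10 weeks, a fall of 1.96 (SE 0.19, adjusted p = 0.0143). Both of its probe sets were lower, and against the male-pattern control of 3 weeks alone the value was -2.22. Ears2, the mitochondrial glutamyl-tRNA synthetase, fell by 1.97 (SE 0.22) at its brightest probe set, but 1 of 4 probe sets stood at 0.08. Gng12, a G protein gamma subunit, read 9.22, 9.26 and 9.44 and then 7.59, 7.93 and 7.66, a fall of 1.58 (2.98-fold, SE 0.13, adjusted p = 0.0143). Galntl6, a glycosyltransferase, fell by 1.41 (SE 0.10, adjusted p = 0.0104), from 10.79, 10.87 and 10.89 to 9.49, 9.31 and 9.50, with -0.05 at its other probe set. Ppard, a nuclear receptor of fatty acids, fell by 1.36 (SE 0.11), with 0.03 at its other probe set.

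Among the dimmer falls, Gda, which deaminates guanine, dropped by 1.92, Dusp23, a phosphatase, by 1.73, and Itga4, an integrin subunit, by 1.59. Spata13, an activator of small GTPases, fell by 1.45, Ccnj, a cyclin, by 1.38, Rbm3os, an antisense transcript, by 1.49, and Nlrc5, which drives class I antigen genes, by 1.43. The 10-week means of Gda (4.58), Itga4 (4.80), Rbm3os (4.26) and Nlrc5 (4.63) lay under the background limit of 4.94. The sizes of their falls are therefore uncertain. These arrays cannot tell Rbm3os from other transcripts of its locus where the probe set overlaps them. Rnf122, a ubiquitin ligase, and Anxa9, an annexin, were under background at 10 weeks and fell by at least 1.05 and 0.81. Atf3, a transcription factor that injury and stress induce, read 6.46, 6.24 and 5.93 at 3 weeks and 4.39, 4.51 and 4.11 at 10 weeks, under background, so it fell by at least 1.27 (adjusted p = 0.0143). The library labelled control 10 weeks 1 read 11.67 for Atf3, far above all 6 others.

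**Figure D2:**
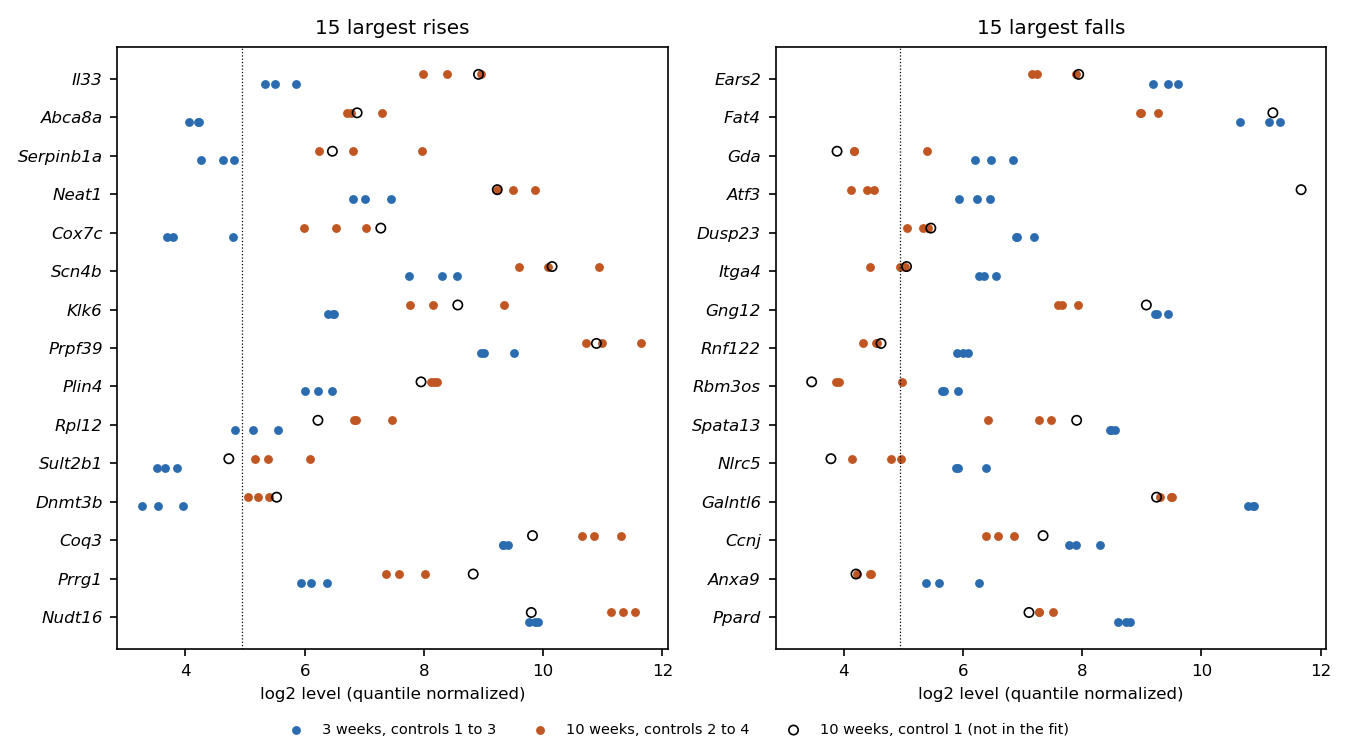
The log2 level of each library (quantile normalized) is plotted for the 15 largest rises and 15 largest falls, with 3-week libraries in blue, 10-week libraries in orange and control 10 weeks 1 as an open circle; the dotted line marks the 25th percentile of the array, 4.94. The groups were required not to overlap, and the open circle lies with the 10-week libraries for Abca8a or Galntl6 but with the 3-week ones, or beyond them, for Nudt16, Fat4 and Atf3.

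The genes that define dopaminergic neurons were among the brightest on the arrays at both ages. Th, tyrosine hydroxylase itself, read 14.18, 14.16 and 14.14 at 3 weeks and 14.10, 14.07 and 14.12 at 10 weeks, a difference of -0.06 (SE 0.08, adjusted p = 0.666). Slc6a3, the dopamine transporter, differed by -0.03 (SE 0.09), Slc18a2, the vesicular monoamine transporter, by 0.01 (SE 0.10), and Ddc, the decarboxylase, by -0.01 (SE 0.09). Of 27 measured genes of dopamine synthesis, transport and identity, 0 rose and 2 fell (7.41% called, beside 8.50% of all genes). Their median was -0.12 against 0.01 for all genes. The 2 were En1, a homeobox factor these neurons need to survive, at 12.42, 12.43 and 12.47 and then 11.67, 11.81 and 12.04 (a fall of 0.60), and Chrna6, a nicotinic receptor subunit enriched in them, at 12.97, 12.98 and 12.88 and then 12.41, 12.47 and 12.63 (a fall of 0.44). Kcnj6, the GIRK2 potassium channel, differed by -0.95 without passing (adjusted p = 0.0878). Its probe sets ran from -0.95 to 1.40. Pitx3, a homeobox factor of these neurons, differed by 1.03 (SE 0.87) only through 1 library: it read 8.61, 11.99 and 8.88 at 10 weeks, beside 8.65, 8.83 and 8.93 at 3 weeks.

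Genes of axon growth and of guidance were called in 9.38% and 7.32% of cases, beside 8.50% of all genes. Of 32 genes of axon growth and the immature neuron, 1 rose and 2 fell, with a median of -0.13. Dpysl5, a collapsin response mediator of growing axons, read 11.72, 11.66 and 11.72 and then 10.66, 10.15 and 10.73, a fall of 1.19 (SE 0.16, adjusted p = 0.0187), with -0.17 at its other probe set. Marcksl1, an actin-regulating substrate of protein kinase C, fell by 0.50, and Igfbpl1, a binding protein of insulin-like growth factor, rose by 0.57. Of 41 guidance receptors and ligands, 0 rose and 3 fell, with a median of -0.05. Plxna1, a semaphorin receptor, dropped by 0.91 (SE 0.14), from 12.07, 12.18 and 12.04 to 10.96, 11.15 and 11.46. Sema6a, a transmembrane semaphorin, fell by 0.84 and Dcc, the netrin receptor, by 0.79, in each case with all 3 probe sets lower. Of 26 neurofilament and cytoskeleton genes, 0 rose and 2 fell (7.69% called). Ina, the neurofilament alpha-internexin, fell by 0.69, from 12.89, 12.82 and 12.96 to 12.04, 12.17 and 12.39 (1 of its 3 probe sets stood at 0.06). Map6, a stabilizer of microtubules, fell by 0.51, with -0.09 at its other probe set. Tuba8, a tubulin, differed by 1.60 without passing (adjusted p = 0.144), mainly through a value of 10.61 in control 10 weeks 3.

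Of 36 genes of synaptic vesicle release, 0 rose and 3 fell (8.33% called, beside 8.50% of all genes), with a median of -0.11. Syn3, a synapsin that tethers vesicles, read 9.97, 9.91 and 9.86 at 3 weeks and 9.31, 9.31 and 9.34 at 10 weeks, a fall of 0.59 (SE 0.08, adjusted p = 0.0191). Rab3b, a vesicle GTPase, fell by 0.94. Unc13b, a priming factor, fell by 0.79, with 0.12 at its other probe set. Syt2, the fast calcium sensor, stood 1.22 higher without passing (adjusted p = 0.0871), and Bsn, an active zone scaffold, 0.99 lower (adjusted p = 0.0645).

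Ion channel genes had rises and falls. Scn4b was the only 1 of 12 sodium channel genes to pass (8.33%, beside 8.50% of all genes), and the list median was 0.10. Of 43 potassium and HCN channel genes 1 rose and 6 fell (16.3% called), beside a median of 0.05. Kcnip3 fell by 0.89, although its other probe set stood at 0.19, and its relative Kcnip2 fell by 0.58, with probe sets from -0.58 to -0.04. Both encode partners of A-type channels. Kcnma1, the large-conductance calcium-activated channel, fell by 0.80, from 11.36, 11.26 and 11.16 to 10.44, 10.14 and 10.79. The Kv1 subunit genes Kcna3 and Kcna6 fell by 0.64 and 0.62, with Kcna6 probe sets from -0.62 to -0.10. Kcnab2, an auxiliary beta subunit, fell by 0.53, with 0.14 at its other probe set. Kcnab3, another beta subunit, rose by 0.90, with -0.30 at its other probe set. Of 36 genes of calcium channels, pumps and buffers 1 rose and 4 fell (13.9% called), with a median of -0.19. Cacna2d2, an auxiliary channel subunit, read 12.96, 12.98 and 12.96 and then 12.03, 11.67 and 12.33, a fall of 0.96. Hpca, the calcium sensor hippocalcin, fell by 0.70 and Cacna1c, the L-type channel Cav1.2, by 0.69, each with a second probe set near 0.10 to 0.11. Slc8a3, a sodium-calcium exchanger, fell by 0.41, with -0.01 at its other probe set. The 1 rise was S100b, by 0.82, a calcium-binding protein best known from astrocytes.

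Among receptors and secreted signals, Grm3, a metabotropic glutamate receptor, was the only 1 of 22 glutamate receptor genes past the test, a rise of 0.56. Clcn2, a chloride channel, was the only 1 of 21 genes of GABA and glycine receptors and chloride transport. Shares called were 4.55% and 4.76% for these lists, 6.90% for neuropeptides and 5.71% for trophic genes, beside 8.50% of all genes. Clcn2 read 6.90, 6.85 and 6.83 and then 7.59, 7.82 and 7.67, a rise of 0.83 (SE 0.10, adjusted p = 0.0144). Gabra6, a GABA receptor subunit of cerebellar granule cells, was under background in all 3-week libraries, at 3.51 to 3.74, and read 9.17 in control 10 weeks 2 but 4.73 and 4.66, again under background, in the other libraries of 10 weeks. Of 29 neuropeptide genes, Pcsk1, a prohormone convertase, fell by 0.52 and Npff, a neuropeptide precursor, by 0.50. Of 35 trophic factor and receptor genes, Fgfr3, an FGF receptor, rose by 0.82 (SE 0.09, adjusted p = 0.0143), from 8.43, 8.46 and 8.35 to 9.18, 9.27 and 9.26. Vegfa, the vascular growth factor, fell by 0.61, with 0.16 at its other probe set.

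Genes of the perineuronal matrix changed in opposite directions, with 2 of 22 higher and 3 lower and a median of 0.02. That is 22.7% called, beside 8.50% of all genes. Hapln2, a link protein that holds hyaluronan at nodes of Ranvier, read 7.33, 7.17 and 7.10 and then 8.79, 8.08 and 8.19, a rise of 1.15 (SE 0.20, adjusted p = 0.0282) with both probe sets higher. Sparcl1, a secreted protein that promotes synapse formation, rose by 0.63. Adamts4, a protease that cleaves lecticans, fell by 1.29 (SE 0.21), from 9.61, 9.47 and 10.17 to 8.57, 8.56 and 8.24, and Ncan, the lectican neurocan, fell by 0.57. Chst3, a sulfotransferase of chondroitin, was under background at 10 weeks and fell by at least 0.32.

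Among 37 genes of chromatin and DNA methylation 1 rose and 3 fell (10.8% called, beside 8.50% of all genes), with a median of -0.14. Dnmt3a, the de novo DNA methyltransferase of postnatal neurons, read 10.61, 10.62 and 10.70 and then 9.70, 9.21 and 9.91, a fall of 1.03 (SE 0.18, adjusted p = 0.0295) with all 5 probe sets lower. Hmgb2, a DNA-bending protein of dividing and immature cells, fell by 1.16, with -0.10 at its other probe set above background, and Chd5, a neuronal chromatin remodeller, by 0.46. The 1 rise was Dnmt3b, near background as given above. Of 22 genes of the imprinted growth network (9.09% called), Rian, a noncoding RNA of the Dlk1 cluster, rose by 0.63. Magel2, a gene of the Prader-Willi region, fell by 0.58. Of the 3 Rian probe sets above background 1 stood at -0.20. None of 34 neuronal RNA-binding and splicing genes passed in limma (11 had an unadjusted p under 0.05, and 4 passed with the spread from 12 arrays); Elavl1 stood 0.41 higher (adjusted p = 0.051) with 5 probe sets from -0.34 to 0.45, and Rbfox3 0.34 higher (adjusted p = 0.0607) with 3 probe sets from -0.65 to 0.34. Of 38 cell cycle genes 2 rose and 3 fell (13.2% called). Cdk1, a mitotic kinase, rose by 0.84 and Cdk2 by 0.53. Ube2c, a mitotic ubiquitin enzyme, fell by 0.85 and Rrm1, of nucleotide synthesis, by 0.47. Nusap1, a spindle protein, fell by 0.75, with 0.15 at its other probe set.

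Cytosolic ribosomal protein genes were the list with the most rises. Of 39 measured, 5 rose (12.8%, beside 3.60% of all genes) and 0 fell, all 39 differences lay above 0, from 0.01 to 1.88, and the median was 0.22 against 0.01 for all genes. Under median centring without quantile normalization the median was 0.17 and 33 of 39 lay above 0. With control 10 weeks 1 added, 6 rose and 0 fell. Rplp2, of the ribosomal stalk, read 13.73, 13.75 and 13.83 and then 14.28, 14.47 and 14.22, a rise of 0.55. Rpl7 rose by 0.52, from 12.73, 12.72 and 12.68 to 13.23, 13.31 and 13.14, and Rps27 by 0.67, from 7.54, 7.69 and 7.70 to 8.23, 8.36 and 8.35. Rpl37 was under background at 3 weeks and rose by at least 0.78. These genes have many near-identical copies in the genome, which the probe sets may not tell apart, and 32 of the 71 listed genes were not analysed here. Of 30 genes of translation factors and ribosome biogenesis 0 rose and 1 fell (3.33% called, beside 8.50% of all genes). That was Pes1, a nucleolar factor, by 0.99, although its other probe set stood at 1.23.

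Sterol synthesis was the list with the largest share of falls among the metabolic lists, 6 of 26 with 0 rises, beside 4.90% of all genes, and with a median of -0.20. Neurons and glia make cholesterol in the brain itself, and the enzymes are under the control of the transcription factor SREBP2, encoded by Srebf2. Srebf2 read 12.12, 11.95 and 11.97 at 3 weeks and 11.19, 11.07 and 11.63 at 10 weeks, a fall of 0.72 (SE 0.16, adjusted p = 0.0467). Along the pathway, Mvk and Pmvk, the kinases of mevalonate, fell by 0.51 and 0.46, with -0.11 at the other Mvk probe set. Lss, which closes the sterol ring, fell by 0.81, from 11.60, 11.45 and 11.40 to 10.78, 10.30 and 10.94. Nsdhl, which removes methyl groups, fell by 0.71, and Dhcr7, the last step to cholesterol, by 0.70 (SE 0.09, adjusted p = 0.0155), from 12.16, 12.04 and 12.09 to 11.41, 11.35 and 11.41. Apoe, the lipid carrier made mainly by astrocytes, stood 0.81 higher without passing (adjusted p = 0.241). The list median was -0.14 with the mean of all probe sets of a gene and -0.09 with its probe set of smallest change. With control 10 weeks 1 added, again 0 rose and 6 fell.

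Since SREBP2 is a known regulator of these genes, the 250 bases before their annotated starts in RefSeq (GRCm38.p6) were searched on both strands for the core letters of the sterol regulatory element, TCACNCCAC. Of 21 sterol genes with a promoter sequence 1 held them, beside 1.22% of 27025 genes, and 0 of the 6 that fell did. The match lies before Hmgcs1, hydroxymethylglutaryl-CoA synthase, at chr13:119690189-119690247 on the plus strand, in the following stretch, with the matched letters in capitals.
Hmgcs1: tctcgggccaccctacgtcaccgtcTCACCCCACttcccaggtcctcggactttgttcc
Hmgcs1 itself, picked after its values were seen, read 14.27, 14.29 and 14.22 at 3 weeks and 14.05, 13.68 and 13.95 at 10 weeks, a difference of -0.37 that did not pass (adjusted p = 0.107). A window without the letters says only that they are not in those bases.

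Among genes of energy metabolism, none of 34 complex I genes passed in limma (3 had an unadjusted p under 0.05, and 0 passed with the spread from 12 arrays), and their differences lay between -0.45 and 0.33, with Ndufs3 at 0.33 (adjusted p = 0.0859) and Ndufa3 at 0.30 (adjusted p = 0.11). Of 39 genes of complexes II to V 1 passed in limma, the dim Cox7c probe set given above (8 had an unadjusted p under 0.05, and 3 passed with the spread from 12 arrays). Of the 39, 27 lay above 0, around a median of 0.06. None of 27 tricarboxylic acid cycle genes passed (8 had an unadjusted p under 0.05, and 2 passed with the spread from 12 arrays). Pdk4 and Pdk2, kinases that switch off pyruvate dehydrogenase, stood at 1.29 (adjusted p = 0.0516) and -0.51 (adjusted p = 0.057). Of 23 genes of glycolysis and sugar and lactate transport 0 rose and 3 fell. That is 13.0% called, beside 2.56% for complexes II to V and 8.50% of all genes. Hk2, a hexokinase, read 6.95, 6.71 and 6.70 and then 5.20, 6.11 and 5.59, a fall of 1.15, but control 10 weeks 1 read 9.65, and with it the difference was -0.16 (adjusted p = 0.935). Slc16a7, the neuronal lactate transporter, fell by 0.83, and Pfkfb2, which tunes phosphofructokinase, by 0.74, with probe sets from -0.74 to 0.45.

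Iron handling, the subject of the mutant in this study, gave 0 calls among 30 genes in limma (4 had an unadjusted p under 0.05, and 1 passed with the spread from 12 arrays). Steap4, a metal reductase, stood at -0.89 (adjusted p = 0.0531) and Slc39a8, a metal importer, at -0.49 (adjusted p = 0.11). Of 24 targets of hypoxia-inducible factor outside glycolysis, Vegfa and Egln3, a prolyl hydroxylase that fell by 0.92, passed. Of 30 redox genes 2 rose and 2 fell: the glutathione transferases Gstm1, by 1.01, from 9.85, 9.72 and 9.78 to 11.01, 11.06 and 10.32, and Gstm5, by 0.40, were higher, and Mt3, the brain metallothionein, dropped by 0.91 and Keap1, the brake on NRF2, by 0.65, with 0.43 at the other Keap1 probe set. Of 29 chaperones Pdia3 alone passed, lower by 0.50. Amino acid supply and the integrated stress response, with 27 genes, had 2 rises, Slc7a5, a transporter of large neutral amino acids (0.60), and Psph, of serine synthesis (0.49), and 1 fall, Atf3. Atf3 was also the only 1 of 27 immediate early genes to pass. Fos stood at 1.05 (adjusted p = 0.0607). Shares called were 8.33% for hypoxia-inducible factor targets, 13.3% for redox genes and 3.45% for chaperones. They were 11.1% for amino acid and stress response genes and 3.70% for immediate early genes, beside 8.50% of all genes.

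None of 21 clock genes passed in limma (3 had an unadjusted p under 0.05, and 2 passed with the spread from 12 arrays), with Clock at -0.44 (adjusted p = 0.0652) and Per3 at 0.85 (adjusted p = 0.0905), where 1 of 5 Per3 probe sets stood at -0.09. No source used here states the hour of collection. Sgk1, a kinase that glucocorticoids induce, rose by 0.46 as the only 1 of 22 hormone response genes to pass. In p53 targets and cell death, Hrk, a death-promoting BH3-only protein, fell by 1.05 (SE 0.13, adjusted p = 0.0165), from 7.51, 7.28 and 7.19 to 6.11, 6.27 and 6.45, and Xiap, a caspase inhibitor, rose by 0.62, with 7 probe sets from -0.40 to 1.11. None of 17 Parkinson disease genes passed in limma (1 had an unadjusted p under 0.05, and 0 passed with the spread from 12 arrays). Their differences lay between -0.38 for Vps13c, whose other probe set stood at 0.08, and 0.27 for Fbxo7. Among 22 genes of antigen presentation and interferon response, H2-Aa, a class II chain, rose by 0.99 and Irf7, an interferon regulator, fell by 0.69, beside a median of 0.29. Shares called were 4.55% for hormone response genes, 8.70% for p53 and death genes and 9.09% for antigen presentation, beside 8.50% of all genes.

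**Figure D3:**
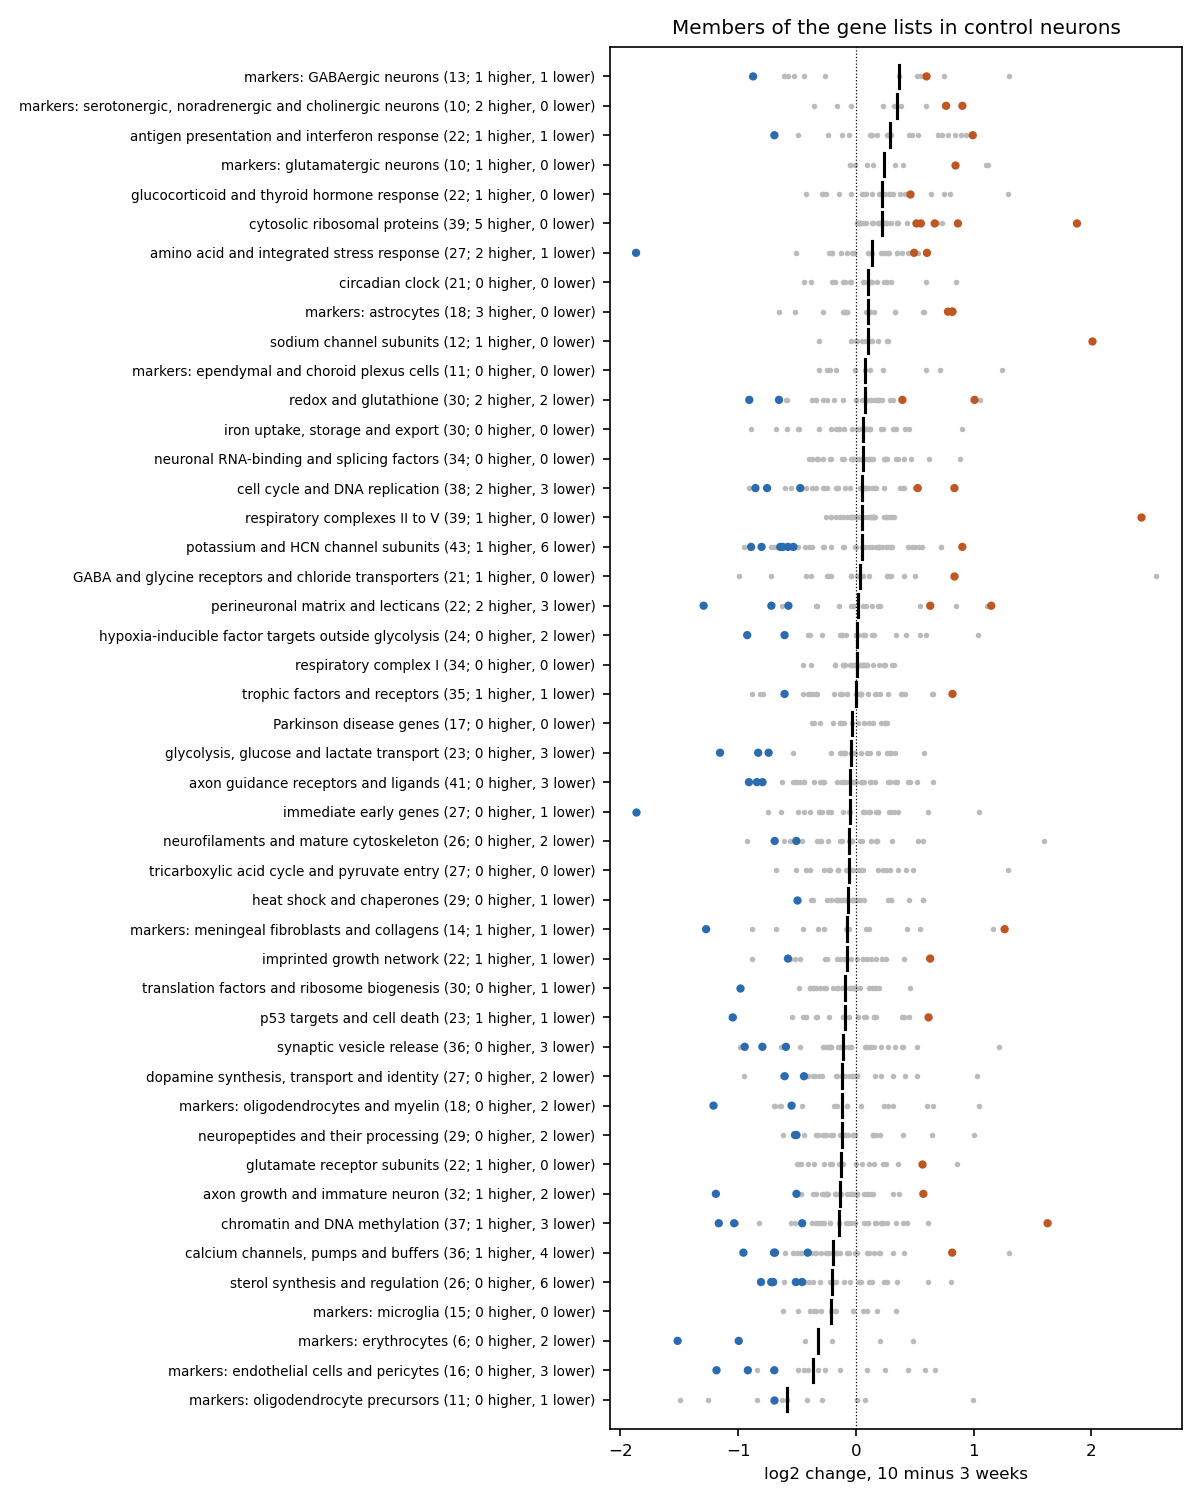
Each row is a gene list and each point the log2 change of a member from 3 to 10 weeks, grey where not called, orange or blue where called higher or lower, with a black bar at the median of the list and the counts in the row label. Most medians lie near 0, sterol genes show 6 called falls, ribosomal proteins show 5 called rises with no member below 0 (33 of 39 above 0 under median centring), and the oligodendrocyte precursor markers have the lowest median, -0.59.

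Markers of other cells were present at both ages. Astrocyte markers summed to 15.14 to 15.25 log2 units at 3 weeks and 15.14 to 15.41 at 10 weeks. Of 18, 3 rose and 0 fell (16.7% called, beside 8.50% of all genes): Fgfr3, S100b and Gjb6, a gap junction protein, which rose by 0.78. Only 10 of the 18 lay above 0, around a median of 0.10, and Aldh1l1 stood lowest at -0.66. Myelin and oligodendrocyte markers summed to 15.65 to 15.72 and 15.30 to 15.72, and 2 of 18 fell (11.1% called). Of these 18, 7 lay above 0, with Gjb1 highest at 1.05. Mal, a myelin proteolipid, read 11.57, 11.65 and 11.50 and then 10.18, 10.76 and 10.16, a fall of 1.21, and Opalin dropped by 0.55. The 11 markers of oligodendrocyte precursors (9.09% called) had a median of -0.59, with sums of 12.95 to 13.03 and 12.52 to 12.90. Of these 11, 3 lay above 0, with Lhfpl3 highest at 0.995. Cspg4, the proteoglycan NG2, fell by 0.69 as the 1 to pass, and Gpr17, a receptor of newly formed oligodendrocytes, stood at -1.50 (adjusted p = 0.113) with 10-week values of 6.63, 8.61 and 6.96. Endothelial and pericyte markers had 3 falls of 16 (18.8%), Cspg4 among them, with Rgs5, a pericyte gene, lower by 1.18 and Tek, the angiopoietin receptor, by 0.92. Of these 16, 5 lay above 0, with Acta2 highest at 0.67. The Rgs5 probe sets ran from -1.18 to -0.11. Of 6 red cell markers 2 fell (33.3%), Hbb-b2, a globin, by 1.51 and Alas2, of heme synthesis, by 0.99, with sums of 12.98 to 13.23 and then 12.35 to 12.71. Of these 6, 2 lay above 0, with Hba-a1 highest at 0.48. Of 14 genes of meningeal fibroblasts and collagens (14.3% called), Col4a1, of basement membranes, dropped by 1.27 and Bgn, a small proteoglycan, rose by 1.26. The Bgn probe sets ran from 0.28 to 1.26. Lum stayed under background at both ages.

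Microglial markers gave 0 calls of 15 in limma (1 at an unadjusted p under 0.05), with Trem2 at -0.30 and Itgam at -0.34, and ependymal and choroid plexus markers 0 of 11 (0 at an unadjusted p under 0.05), with Enkur at 0.23 and Kl at -0.31. Folr1 and Tmem212 of the latter list were under background at both ages. Among markers of other neurons, Gad2, which makes GABA, rose by 0.60, from 10.85, 10.63 and 10.85 to 11.44, 11.55 and 11.15, with -0.12 at its other probe set, while Pax5, a paired-box factor of the midbrain, fell by 0.87, with 0.15 at its other probe set. Pvalb, of fast-spiking neurons, stood at 1.31 (adjusted p = 0.0622). Barhl1, a marker of subthalamic and hypothalamic glutamatergic neurons, rose by 0.84, and the cholinergic genes Slc18a3, the vesicular transporter of acetylcholine, and Chat, its synthase, rose by 0.91 and by at least 0.32. The 13 GABAergic markers summed to 12.90 to 13.10 at 3 weeks and 12.84 to 13.41 at 10 weeks, the 10 glutamatergic ones to 10.43 to 10.83 and 10.79 to 11.59, and the 10 serotonergic, noradrenergic and cholinergic ones to 9.65 to 9.80 and 9.78 to 10.45. In that order 7 of 13, 7 of 10 and 7 of 10 lay above 0. Shares called were 15.4%, 10% and 20%, beside 8.50% of all genes. The part of these cells in the changes named above was not tested.

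With the library labelled control 10 weeks 1 added, limma called 1411 genes (7.76%), 633 higher and 778 lower, and 1142 of them were the same genes in the same direction. Of 119 genes described here that had passed, 38 no longer did. Among the largest changes these were Coq3 (1.28, adjusted p = 0.0557), Nudt16 (1.09, adjusted p = 0.14), Fat4 (-1.43, adjusted p = 0.14), Gng12 (-1.25, adjusted p = 0.0642), Spata13 (-1.24, adjusted p = 0.0519) and Atf3 (-0.05, adjusted p = 0.991). Vegfa (-0.25, adjusted p = 0.702), Hrk (-0.26, adjusted p = 0.864), Gstt2 (0.55, adjusted p = 0.53), Gstm5 (0.25, adjusted p = 0.379) and Hk2, given above, also moved by more than 1.5 times. The other list members that no longer passed were Dcc, Unc13b, Syn3, Hpca, Pcsk1, Npff, Magel2, Hmgb2, Cdk2, Slc16a7, Slc7a5, Psph, Sgk1, Xiap, Mal, Opalin, Tek, Pax5, Chrna6, Egln3, Kcnma1, Map6, Mt3, Pdia3, Rab3b, Rgs5 and Rrm1, with adjusted p from 0.0511 for Cdk2 to 0.308 for Npff. Il33 at 2.97, Neat1 at 2.34 and Plin4 at 1.86 passed in both, as did Abca8a. That library read 9.80 for Nudt16, where the other controls of its age lay between 11.13 and 11.54. It read 11.20 for Fat4, beside 8.97 to 9.28.

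The age change in control neurons was set against that in Tfr1-null neurons with 12 arrays, adding Tfr1-null 3 weeks 2 to 4 and Tfr1-null 10 weeks 1 to 3. The library labelled Tfr1-null 3 weeks 1 was left out because its source name says control, against its title. Of the 1546 genes called in controls, 1429 (92.4%) had a difference of the same sign in Tfr1-null neurons, beside 68.6% of all genes. The ages were scaled apart in both genotypes, so a shift common to the arrays of one age counts in both. Over all libraries of both genotypes the male pattern appeared in 1 of 7 at 3 weeks and in 7 of 7 at 10 weeks. A difference by sex therefore also counts in both. The difference of the age changes was called for 55 genes (0.303%), with 21 (0.116%) where the control change lay above the Tfr1-null change and 34 (0.187%) where it lay below, and 2225 genes had an unadjusted p under 0.05. Of the 55, 13 were also called for age in controls. With all 14 libraries as labelled the count was 0, with 1360 genes at an unadjusted p under 0.05.

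Sprr1a and Ecel1 on the lower side and Cldn2 on the upper had large differences. Ecel1, an endopeptidase induced in injured neurons, read 6.91, 6.80 and 7.06 in controls at 3 weeks and 7.25, 7.05 and 7.62 at 10 weeks, beside 7.51, 7.69 and 7.56 and then 11.35, 11.83 and 11.65 in Tfr1-null, a difference of age changes of -3.64 (SE 0.22, adjusted p = 0.000118). Sprr1a, a protein of regenerating axons, differed by -5.27, with controls at 4.66 to 5.63. The metalloprotease Mmp12 was under background in all 6 controls, at 2.86 to 3.36, so no size is given for its difference. In Tfr1-null it rose by 3.82, from 7.52, 8.30 and 8.24 to 11.68, 11.75 and 12.08. Dsp, a desmosome protein, differed by -3.58 and Aldh3b2, an aldehyde dehydrogenase, by -3.49. On the other side, Cldn2, a tight junction protein, read 9.21, 9.51 and 9.61 and then 9.22, 9.18 and 9.87 in controls and 8.25, 7.78 and 8.27 and then 5.26, 5.88 and 6.21 in Tfr1-null, a difference of 2.29 (SE 0.36, adjusted p = 0.0336). Aldh1a7, a retinal dehydrogenase, differed by 1.71, Derl3, of endoplasmic reticulum degradation, by 1.95, and Fgf20, a growth factor of dopaminergic neurons, by 1.65.

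Of the 13 genes called in both tests, Gstt2, Nudt16, Atf3, Hrk and Spata13 are named here. Gstt2, a glutathione transferase, rose in controls by 1.06, from 7.17, 6.97 and 6.77 to 8.20, 7.87 and 8.03, and moved by -0.34 in Tfr1-null, a difference of 1.41 (SE 0.22, adjusted p = 0.0336). Nudt16 stood at 1.47 in controls and 0.18 in Tfr1-null (difference 1.30, adjusted p = 0.0108). Atf3 fell in controls and stood at 10.19 to 11.33 and then 11.28 to 12.13 in Tfr1-null, and with its 10-week control level set to the background limit the difference was -2.17 or lower. Hrk stood at -1.05 in controls and 1.40 in Tfr1-null (difference -2.45, adjusted p = 0.0169), and Spata13 by -1.46 and 0.70 (difference -2.17, adjusted p = 0.0459).

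**Figure D4:**
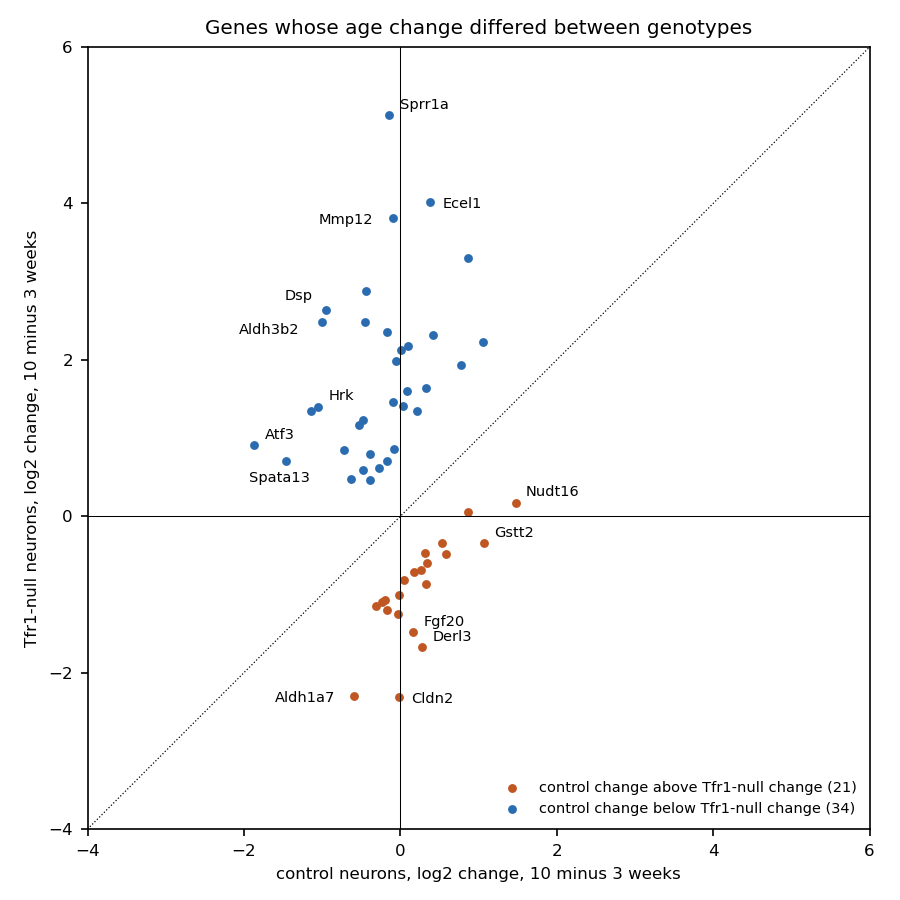
The log2 change from 3 to 10 weeks in control neurons (horizontal axis) is plotted against that in Tfr1-null neurons (vertical axis) for the 55 genes whose changes differed, orange for 21 genes where the control change lay above and blue for 34 where it lay below, with equal changes on the dotted line and levels under background plotted as measured. Sprr1a, Mmp12 and Ecel1 lie near 0 for controls and at 5.13, 3.82 and 4.02 for Tfr1-null, while Gstt2 and Nudt16 lie at 1.07 and 1.47 for controls and at -0.34 and 0.18 for Tfr1-null.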

How the data were processed

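The values were log2 signals of Affymetrix mouse whole-genome arrays, as the authors deposited them. Per the submitters' processing notes they were made by RMA in Partek 6.5, and per the labels' protocols 50 ng of RNA per library were amplified with the NuGEN Ovation V2 kit. No scanner files were used, so depth is not defined, and the number of arrays limits the precision. The members, gene lists and naming rule were chosen with earlier results of these data known.

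Of 45101 probe sets, 34958 carry 1 gene symbol in the platform annotation, 932 several and 9211 none. Each gene was read from 1 probe set, the one whose mean over the 6 arrays was highest. Y-linked genes (9) and X-inactivation genes (4) were left out. The 6 arrays were quantile normalized together, and ages were compared with limma (lmFit and eBayes, 4 residual degrees of freedom, prior 2.38) and Benjamini-Hochberg adjustment over 18179 genes. The difference between genotypes was fitted to 12 arrays (8 residual degrees of freedom, prior 2.80). SE is the moderated standard error.

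Named genes are Th, Slc6a3, Slc18a2 and Ddc, and the 15 largest rises and 15 largest falls among called genes. Those had to be called on within-array ranks too, have groups that do not overlap and be above background in the brighter age. The rule adds up to 4 such members per list, or the 2 with the smallest p where none is called, and 5 genes per direction for the genotype difference. Clones and unnamed genes were passed over. Other called list members complete the counts, and Hmgcs1, Pitx3, Kcnj6, Pvalb, Gabra6, Gpr17, Syt2, Bsn, Tuba8, Fos, Apoe and Tdrd1 were chosen after their values were seen. Lists named 1237 genes, of which 1108 were measured.

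Tested on simulated data over 18179 genes, the age comparison recovered 8%, 68% and 84% of genes shifted by 0.5, 1 and 2 log2 units, beside 7 false calls. For the genotype difference these shares were 8%, 40% and 86%, beside 11 false calls. Only 50 genes were shifted per size, whereas the measured data gave 1546 calls for age. The false calls are therefore no error rate for the calls in the measured data. Software was R 4.3.3, limma 3.58.1, Python 3.11.15, pandas 2.3.3, numpy 2.4.6 and matplotlib 3.10.9.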

Additional observations from a re-analysis of the deposited data

Results flagged for a closer look

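Among 160 genes described in the report, 23 had 1 of the 4 libraries labelled control 10 weeks standing apart from the other 3, where chance alone gives about 1 in 20 genes. In 16 of the 23 that library was control 10 weeks 1, which had been set aside for its Tfrc pattern. It was high for Sprr1a (13.15), Mmp12 (11.82), Atf3 (11.67), Slc7a5 (11.68), Ecel1 (11.23), Fat4 (11.20), Syn3 (9.89), Hrk (9.49), Pax5 (6.92) and Tek (5.96). It was low for Th (13.84), Gstm5 (12.00), Aldh1a7 (8.07), Fgf20 (6.98), Gstt2 (6.10) and Cldn2 (4.66). For Sprr1a, Mmp12, Ecel1, Atf3, Hrk and Slc7a5 it lay above all 6 controls used, and for Aldh1a7, Fgf20, Gstt2, Cldn2, Th and Gstm5 below all 6. For Pax5 it was about level with the highest of the 6, at 6.91. The genes of the genotype difference are among the 160, so these 16 are no independent count.

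In the others the library was one of the 3 used. Control 10 weeks 3 was low for Dpysl5 (10.15) and high for Sparcl1 (11.44) and Pitx3 (11.99). Control 10 weeks 4 was low for Gstm1 (10.32) and high for Kl (5.81). Control 10 weeks 2 was low for Clock (8.75) and high for Slc8a3 (11.23).

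The age change differed between genotypes for 14 of these genes by limma with adjustment over all genes. The control change minus the Tfr1-null change was -5.27 for Sprr1a, -3.64 for Ecel1, -3.58 for Dsp, -3.49 for Aldh3b2, -2.45 for Hrk and -2.17 for Spata13, and -2.17 or lower for Atf3, whose 10-week controls are under background. For Mmp12, under background in the controls of both ages, the Tfr1-null change alone was measured, 3.82. It was 2.29 for Cldn2, 1.95 for Derl3, 1.71 for Aldh1a7, 1.65 for Fgf20, 1.41 for Gstt2 and 1.30 for Nudt16. The cause of these differences was not tested.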

How the results depend on the processing

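The count of 1546 called genes was within 1.5 times with control 10 weeks 1 added, on within-array ranks, without dim genes, with the mean of all probe sets, with trend and robust moderation and with array weights. It was 2576 under median centring without quantile normalization (35.2% of calls higher, against 42.4%), 2567 for deposited values relative to their median change, 15858 for deposited values as they stand (99.8% higher, by the scaling of the ages), 2469 with the spread from 12 arrays, 2624 with that from 14 arrays as labelled, 653 with the probe set of smallest change per gene, and 1 against the male-pattern 3-week control alone with the spread from 10 arrays. Leaving out 1 library gave 0 to 1625 genes: 0 without each 3-week control, and 972, 1294 and 1625 without control 10 weeks 2, 3 and 4. The replicate number as a replicate block gave 0 genes (2987 at an unadjusted p under 0.05), and 0 with control 10 weeks 1 added (4275). Deviations of same-numbered libraries from their group means correlated at -0.03 for number 2 and 0.02 for number 3. With 3 libraries per age this cannot decide whether libraries of one number share a batch. The genotype difference of 55 genes became 0 with all 14 arrays as labelled and 3 with the replicate block (Ecel1, Mmp12 and Gm13889, named for the low count). The cause of these changes was not tested. A library left out at either age leaves fewer residual degrees of freedom. The median SD of a gene was 0.10 log2 units at 3 weeks and 0.19 at 10 weeks. The part of either in the counts was not tested. The settings relative to the median change, with 11 arrays and with 10 arrays were chosen after seeing the data.

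Among the 119 called genes described in the report, those whose sign changed were as follows. With the probe set of smallest change, Ears2 was 0.081, Ppard 0.032, Unc13b 0.12, Kcnab3 -0.30, Kcnip3 0.19, Hpca 0.10, Cacna1c 0.11, Vegfa 0.16, Rian -0.20, Nusap1 0.15, Pfkfb2 0.0083, Keap1 0.43, Xiap -0.0059, Pax5 0.15, Gad2 -0.12, Ina 0.062 and Kcnab2 0.14. With the mean of all probe sets Pes1 was 0.12, and Atf3 was 0.63 and Hk2 0.18 in the replicate block with control 10 weeks 1.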

Other observations

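Other genes whose age change differed between genotypes, chosen here after their values were seen, include signalling and immediate early genes. Npy, neuropeptide Y, read 7.80, 8.28 and 7.24 at 3 weeks and 7.28, 7.33 and 7.36 at 10 weeks in controls, and 7.27, 7.72 and 7.45 and then 9.92, 10.14 and 9.84 in Tfr1-null. Its control change minus its Tfr1-null change was -2.94 (SE 0.31, adjusted p = 0.00407 in limma). Inhba, an activin subunit, differed in the same way by -3.32, and the immediate early genes Jun and Egr1 by -1.72 and -2.03. Jun stood at 10.62 to 10.87 and then 10.08 to 10.42 in controls, so the ages did not overlap there, though the change was not called. Cd68, a lysosomal protein of phagocytes, differed by -2.07, with controls between 5.82 and 6.35 at both ages and Tfr1-null at 7.82 to 8.04 and then 9.81 to 10.26. Foxa1, a transcription factor of dopaminergic neurons, differed the other way by 0.78 (SE 0.12): controls lay at 11.27 to 11.39 and then 11.56 to 11.69, and Tfr1-null at 11.17 to 11.33 and then 10.70 to 10.85.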
